A study of Mus musculus with 36 samples.

Results

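Angptl4 encodes angiopoietin-like 4, a secreted protein also known as Fiaf, the fasting-induced adipose factor. It inhibits lipoprotein lipase, the enzyme on capillary walls that frees fatty acids from circulating triglycerides for uptake by fat and muscle. Its transcription is driven by peroxisome proliferator-activated receptors and rises with fasting, and the intestinal epithelium is among its sources. Gut microbes are known for lowering it in the small intestine of mice, which is why its behaviour with a complex microbiota and with single bacterial strains is of interest.

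The transcript was followed through 1 real-time PCR assay, Mm00480431_m1, chosen by its catalogue ID from the 224 TaqMan assays of a custom OpenArray panel. The deposited table lists assays by catalogue ID alone, and the mouse gene table used here (GRCm38.p6, RefSeq) held 0 of these IDs. Angptl4 (gene 57875) is the catalogue's gene for this ID, and that pairing was not checked in the files. No other assay of the panel is named by gene. The lists of lipases, of PPAR and fasting targets, of lipid transport genes, of hypoxia and glucocorticoid targets and of ileal cell type markers drawn up for this tissue therefore could not be matched to assays. Whether the panel holds any of their members was not settled. For the same reason the tissue label was not checked against marker genes.

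All samples were ileal mucosa of mice, the inner layer of the distal small intestine. The control was germfree mice (Ax), raised without microbes. The mono-associated mice carried a single strain, either E. coli CEC (the labels do not say what CEC stands for) or the probiotic E. coli Nissle, and conventional mice (CV) carried an ordinary complex microbiota. The labels of both mono-associated groups give the number 21 for colonisation, with no unit. Each of the 4 groups held 9 samples. The sources used here give no mouse strain, age, sex or feeding state. The study's design text speaks of pooled RNA while each sample carries its own number, so the spread behind each p-value is that between deposited samples and could be technical in part. Any difference in rearing or in the length of colonisation cannot be told apart from the microbiota.

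Across the panel, 175 to 222 assays gave a Ct per sample, and the mean Ct over the 146 assays with a value throughout the study ran from 21.0 to 21.8 cycles. Ct is the PCR cycle at which a well's fluorescence crosses its threshold, so a higher Ct stands for less template. CEC replicate 7 stood apart from its group: the levels of 35 of its 217 measured assays were over 3 log2 units away from the median of the other CEC samples, 23 lower and 12 higher, against at most 8 in any other sample. Fold changes that use CEC samples are therefore given with and without that sample. CEC replicate 6 and Nissle replicate 6 had the most undetermined wells, 26 and 49 of 224, and those 2 samples were the ones in which the Angptl4 well did not amplify. The assay was thus measured in 34 of 36 samples, in 9 germfree, 8 CEC, 8 Nissle and 9 conventional samples. Fisher's exact test, two-sided, gave p = 1 for each colonised group against germfree. With at most 1 undetermined well per group these counts could give no other value, so the test cannot compare detection. At a mean Ct of 22.1 the assay ranked 136th from the lowest among 222 assays with any Ct, somewhat above the panel's median of 21.4.

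In raw cycles, conventional samples were among the latest to cross the threshold. Their Angptl4 Ct lay between 22.7 and 23.8, with a median of 23.3. Germfree samples ran from 20.5 to 23.2 around a median of 21.6, and Nissle samples from 20.3 to 22.7 around 21.8. CEC samples lay between 20.3 and 22.2, except replicate 7 at 26.3. The conventional samples thus crossed the threshold later than most others at much the same overall Ct, since their mean over the 146 assays was 21.0 to 21.3. The raw ranges overlapped through 2 samples beside CEC replicate 7. Nissle replicate 2, at 22.72, lay above conventional replicate 2, at 22.70, and germfree replicate 31, at 23.17, lay above conventional replicates 2, 3 and 9.

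**Figure D1:**
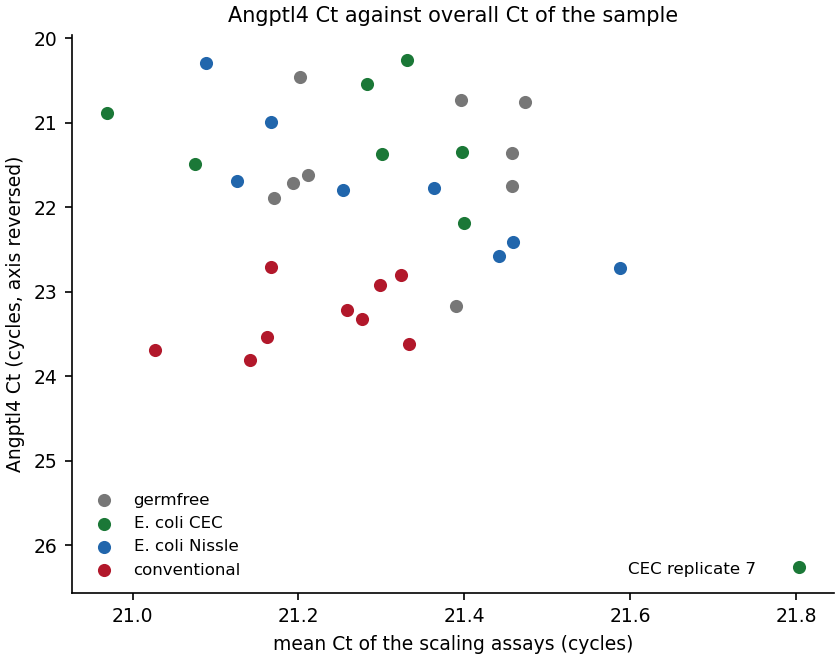
Angptl4 Ct in cycles (vertical axis, reversed so that more transcript is higher) against the mean Ct of the 146 scaling assays in the same sample (horizontal axis, cycles), 1 point per sample, coloured by group. Conventional samples sit at 22.7 to 23.8 within the horizontal range of the other groups, and CEC replicate 7 lies alone at 26.3 with the highest overall Ct, 21.8.

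The log2 relative level used from here on is the mean Ct of those 146 assays minus the Ct of Angptl4 in the same sample. A level of 0 means that Angptl4 crossed at the panel's mean cycle, and each unit is 1 cycle, or a doubling if amplification is complete. Angptl4 was not among the 146 assays. In germfree samples the level ran from -1.78 to 0.74, with a median of -0.30 and a mean of -0.17 ± 0.83 (SD, n = 9). Germfree replicates 20, 32 and 33 lay close together at 0.67 to 0.74, while replicate 31 was lowest at -1.78 and the other 5 lay between -0.72 and 0.10.

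CEC samples had a median level of -0.01 and a mean of -0.47 ± 1.71 (SD, n = 8). Replicate 7 was at -4.46, below all other samples of the study, and replicate 2 was highest at 1.07. Without replicate 7 the CEC range was -0.79 to 1.07 and the mean 0.10 ± 0.64 (SD, n = 7). Apart from that sample, the CEC values overlapped the germfree range, with replicate 2 above the highest germfree sample. Replicate 10, at 0.7400, was level with that germfree sample, at 0.7392.

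Nissle samples ran from -1.14 to 0.79, with a median of -0.55 and a mean of -0.47 ± 0.67 (SD, n = 8). Replicates 8 and 9 were the highest, at 0.17 and 0.79, and the remaining 6 lay between -1.14 and -0.41. Conventional samples ran from -2.67 to -1.47, with a median of -2.04 and a mean of -2.07 ± 0.46 (SD, n = 9). All 9 conventional samples were below all 8 Nissle samples and below every CEC sample except replicate 7. They overlapped germfree through 1 sample, since germfree replicate 31 at -1.78 was lower than conventional replicates 2, 3 and 9, at -1.54, -1.47 and -1.63.

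**Figure D2:**
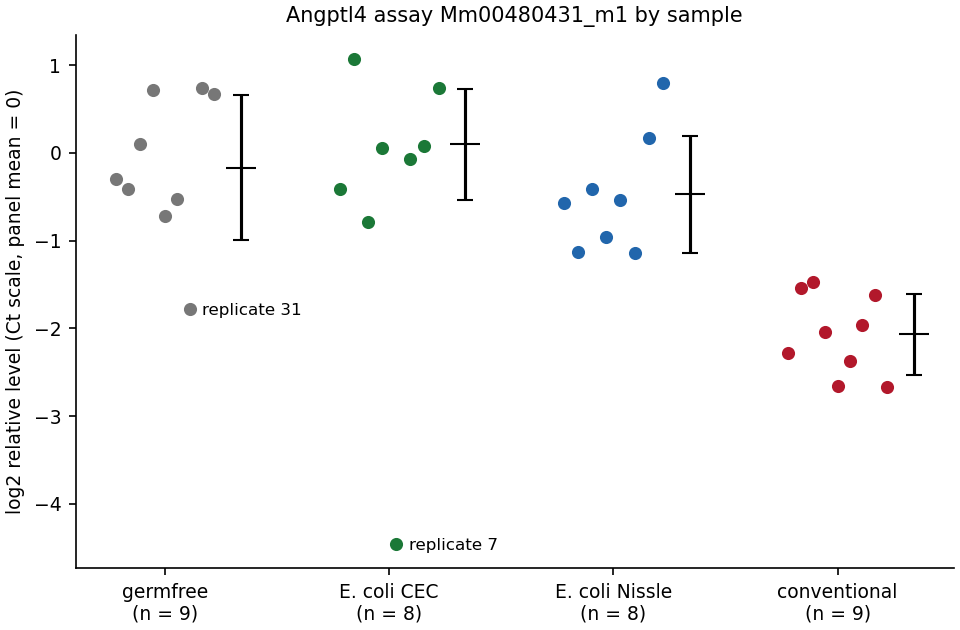
Angptl4 log2 relative level (vertical axis, in cycles relative to the mean of 146 assays) in each of the 34 samples with a value, by group; the bar beside each group is the mean ± SD, without CEC replicate 7. Apart from germfree replicate 31 and CEC replicate 7, which are labelled, germfree, CEC and Nissle samples lie between -1.14 and 1.07, and the 9 conventional samples lie between -2.67 and -1.47.

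Among samples of 1 group, Angptl4 varied more than most of the panel in germfree mice and less so in conventional mice. Its germfree SD of 0.83 compares with a panel median of 0.41, and 23 of 219 assays had a larger one. In conventional samples its SD of 0.46 compares with a panel median of 0.33, and 74 of 221 assays had a larger one. The CEC SD of 0.64 without replicate 7 and the Nissle SD of 0.67 lay between these.

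The first question was whether an ordinary microbiota changes Angptl4 relative to mice with no microbes. In conventional samples Angptl4 fell by 1.90 ± 0.46 on the log2 scale (SE) from germfree (limma, adjusted p = 0.0023 over 216 assays). The level was 3.74-fold lower, with a 95% confidence interval of 1.94 to 7.19, or 26.8% of the germfree level. All 9 conventional samples lay below the germfree mean and 6 lay below every germfree sample. An exact permutation test of this assay alone gave p = 0.00016 (two-sided, 48620 arrangements). Of all assays tested, 13.9% were called lower in conventional than in germfree samples, and Angptl4 ranked 3rd from the lowest log2 fold change of the 216, against a panel median of -0.08. In 2.78% of assays all conventional samples lay below all germfree samples, and Angptl4 was not among these because of germfree replicate 31. In tissue RNA, fewer cells that express a gene and less transcript per cell cannot be told apart.

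Without CEC replicate 7, which belongs to neither group but enters the shared estimate of spread, the difference stayed at -1.90 with a smaller SE of 0.30 (limma, adjusted p = 1.06e-05). In that repeat 19.5% of assays were called lower. Without germfree replicate 31 as well, the log2 fold change was -2.10 (limma, adjusted p = 5.59e-07). The call was lost when undetermined wells were filled in at 1 cycle above an assay's highest Ct in place of being left out (limma, adjusted p = 0.069, same fold change). For Angptl4 that highest Ct was 26.3, in CEC replicate 7, so the fill value came from that sample. The fill was not repeated without it.

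**Figure D3:**
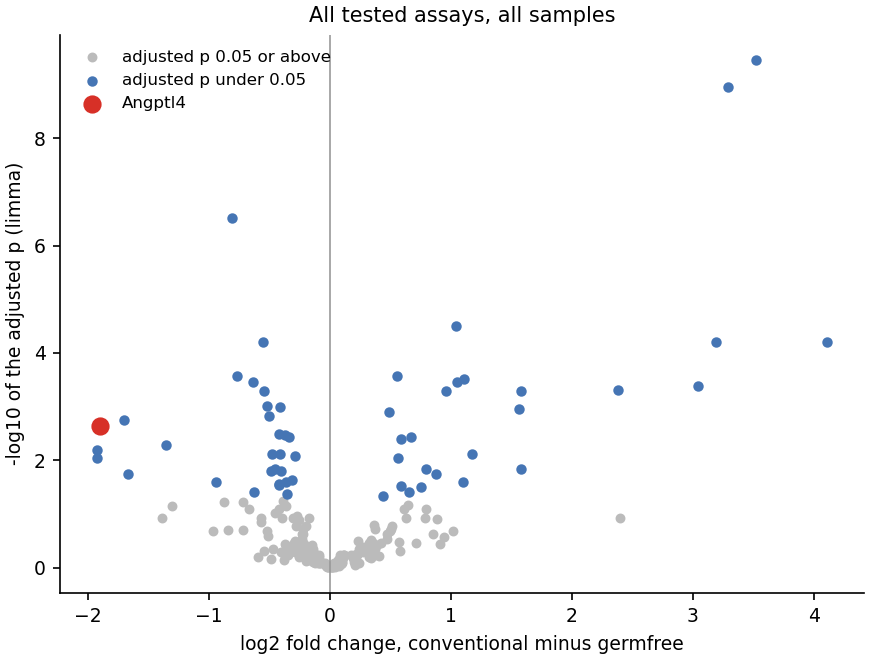
Log2 fold change of conventional minus germfree (horizontal axis) against -log10 of the limma adjusted p (vertical axis) for the 216 assays tested in all samples; blue points have an adjusted p under 0.05 and the red point is Angptl4. Angptl4, at -1.90, sits at the left edge of the panel beside a few assays with similar decreases, while the largest increases reach further, up to 4.11.

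The second question was whether a single E. coli strain is enough to move Angptl4. Neither strain changed it detectably. With CEC the log2 fold change from germfree was -0.31 ± 0.48 (SE; limma, adjusted p = 0.75), with a 95% confidence interval of -1.28 to 0.67. The sign rested on CEC replicate 7: without it the value was 0.26 ± 0.32 (limma, adjusted p = 0.56; interval -0.40 to 0.93), and 5 of 7 CEC samples lay above the germfree mean. That interval does not reach the conventional value of -1.90. The CEC interval with all samples overlaps that of conventional minus germfree with all samples, -2.85 to -0.96. With all samples 5.09% of assays were called in either direction for CEC minus germfree, and without CEC replicate 7 26.0% were.

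With Nissle the log2 fold change from germfree was -0.31 ± 0.48 (SE; limma, adjusted p = 0.73), with a 95% confidence interval of -1.28 to 0.67, and 6 of 8 Nissle samples lay below the germfree mean. Once CEC replicate 7 was out of the shared fit, the same difference had an interval of -0.94 to 0.33 (limma, adjusted p = 0.51). Of all assays 7.41% were called in this comparison with all samples and 16.3% without CEC replicate 7. Exact permutation tests of Angptl4 alone gave p = 0.72 for CEC (0.50 without replicate 7) and p = 0.42 for Nissle against germfree. The mean of the mono-associated groups differed from germfree by -0.31 ± 0.41 (limma, adjusted p = 0.66), in a comparison where 13.9% of assays were called in either direction. Without CEC replicate 7 that difference was -0.02, with an interval of -0.57 to 0.53 (limma, adjusted p = 0.94), and 28.8% of assays were called. These comparisons share the germfree samples, so their values are not independent of each other.

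The strains were also set against each other. Nissle and CEC means were nearly equal with all samples, with a log2 difference of -0.00046 ± 0.49 (SE; limma, adjusted p = 0.999) and a 95% confidence interval of about 1 log2 unit to either side. That equality came from CEC replicate 7. Leaving it out gave a log2 difference of -0.57 ± 0.33 with an interval of -1.25 to 0.11, which did not pass the test (limma, adjusted p = 0.71; exact permutation p = 0.12 for this assay alone). In all samples 0.463% of assays, a single one, were called between the strains by limma, and without CEC replicate 7 the count was 0, with 13 at an unadjusted p under 0.05. These data do not show that the strains act alike on Angptl4, since a log2 difference of -1.25 still lies inside the interval.

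The third question was how a complex microbiota compares with a single strain. Angptl4 was lower in conventional samples than in either mono-associated group. Against the mono-associated mean it fell by 1.60 ± 0.41 on the log2 scale (SE, limma adjusted p = 0.0049), a 3.02-fold lower level with a 95% confidence interval of 1.70 to 5.39, and 9 of 9 conventional samples lay below that mean. In this comparison 12.5% of assays were called lower, and Angptl4 again ranked 3rd from the lowest of 216. The exact permutation test gave p = 0.0012 with all samples, and 7.65e-07, the smallest that 1307504 arrangements can give, without CEC replicate 7. With CEC replicate 7 left out, the log2 fold change was -1.88 ± 0.27 (limma, adjusted p = 1.52e-06), a 3.68-fold lower level, with 19.1% of assays called lower. All 9 conventional samples then lay below all 15 mono-associated samples, which held for 2.78% of assays. Once wells without amplification received a late Ct in this way, which gives CEC replicate 6 and Nissle replicate 6 a value, the log2 fold change was -0.97, a 1.96-fold lower level, and did not pass the test (limma, adjusted p = 0.31).

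Against Nissle alone conventional samples fell by 1.60 ± 0.48 on the log2 scale (SE, limma adjusted p = 0.017), a 3.02-fold lower level, where 10.6% of assays were called lower. The groups did not overlap, which was true of 3.24% of assays. The exact permutation p of 4.11e-05 is the smallest that 24310 arrangements can give. With CEC replicate 7 out of the fit, the adjusted p was 0.0002 (limma), with 16.7% of assays called lower. Filling in undetermined wells ended this call too (-0.98; limma, adjusted p = 0.43).

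Against CEC alone the result depended on replicate 7. With all samples Angptl4 fell by 1.60 ± 0.48 on the log2 scale (SE, limma adjusted p = 0.020), where 7.87% of assays were called lower. It missed the threshold when only these 2 groups were fitted (limma, adjusted p = 0.081), in the permutation test adjusted over all assays (adjusted p = 0.093) and without CEC replicate 2 (limma, adjusted p = 0.054). Giving wells without amplification a late Ct, as above, brought it to -0.96, which did not pass the test either (limma, adjusted p = 0.48). Without CEC replicate 7 the log2 fold change was -2.17 ± 0.32 (limma, adjusted p = 4.08e-06), a 4.49-fold lower level, with 14.9% of assays called lower. The 9 conventional and 7 CEC samples did not overlap then, as was true of 5.56% of assays, and the exact permutation p of 8.74e-05 is the smallest that 11440 arrangements can give.

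**Figure D4:**
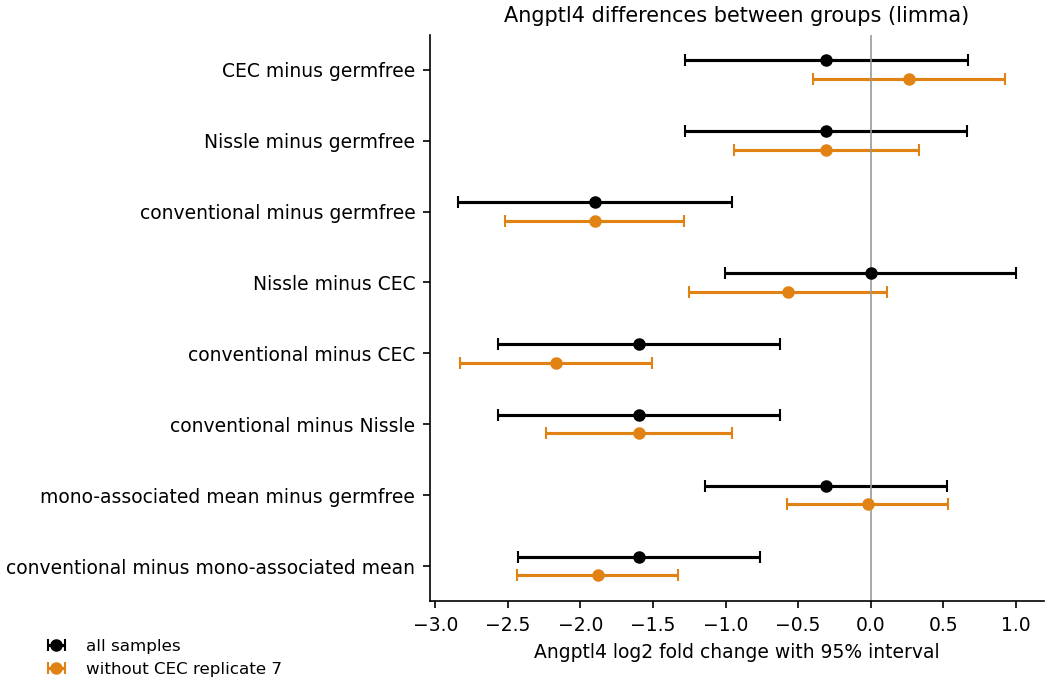
Angptl4 log2 fold change with its 95% confidence interval (horizontal axis) in the 8 comparisons, each the first named group minus the second, from limma with all samples (black) and without CEC replicate 7 (orange). The 4 comparisons with conventional samples lie between -1.60 and -2.17 with intervals below 0, and the 4 others have intervals that include 0.

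Ordered by mean level with all samples, germfree came first, at -0.17, followed by CEC and Nissle, both at -0.47, and conventional at -2.07. Without CEC replicate 7 the order was CEC at 0.10, germfree at -0.17, Nissle at -0.47 and conventional at -2.07. In either order the upper 3 groups were not separated from their neighbours beyond the spread between samples, and conventional was separated from the group next to it. The position of Angptl4 among the assays measured in a sample, ranked from the lowest Ct, needs no scaling and was late in conventional samples. Conventional samples had it 157th to 172nd, germfree samples 88th to 155th, Nissle samples 82nd to 145th and CEC samples 75th to 134th, apart from 199th in CEC replicate 7. The gap to germfree was narrow, with germfree replicate 31 at 155th. The number of measured assays differed between samples, and the share of assays whose ranks separate these groups was not computed.

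Assays were ranked by how closely their levels followed Angptl4 over the 34 samples in which it was measured. They share samples and scaling with it, and 212 assays were compared. The highest correlation was with Mm00472520_m1 (Pearson r = 0.80, Spearman rho = 0.72), and r was 0.71 without the samples farthest from the Angptl4 median, CEC replicate 7 and conventional replicate 10. It stayed the highest, at 0.744, just above the next assay at 0.741, without CEC replicate 7 and Nissle replicate 6. Nissle replicate 6 has no Angptl4 value, so only CEC replicate 7 left this correlation. Pooled over groups as deviations from group means, without those 2 samples, the r of Mm00472520_m1 with Angptl4 was 0.69, the 13th highest of 212. Nissle samples did not show this: where Angptl4 was highest, in replicates 8 and 9, Mm00472520_m1 was at 2.18 and 2.38. Where Angptl4 was lowest, in replicates 7 and 2, that assay was at 2.30 and 2.64. Its own group means were 2.12 ± 0.60 for Nissle, 1.90 ± 0.86 for CEC, 1.68 ± 0.71 for germfree and 1.16 ± 0.57 for conventional samples (log2 relative level, SD, n = 9 each), and without replicate 7 the CEC mean was 2.16 ± 0.34. These means include CEC replicate 6 and Nissle replicate 6, which have no Angptl4 value. The Nissle samples that have one lay between 1.90 and 2.64 for Mm00472520_m1. The group mean of Mm00472520_m1, like that of Angptl4, was lowest in conventional samples with or without CEC replicate 7.

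The second highest was Mm00489956_g1 (r = 0.78, rho = 0.45). Inside groups and without CEC replicate 7 and Nissle replicate 6 its r was 0.02. The lowest correlations were with Mm00465049_m1 (r = -0.84, rho = -0.73) and Mm00466886_m1 (r = -0.72, rho = -0.63). Without CEC replicate 7 and Nissle replicate 6 the lowest was another assay, Mm00440502_m1 (r = -0.79, against -0.42 with all samples), while Mm00465049_m1 came second, at -0.77, and Mm00466886_m1 came 8th, at -0.60. Mm00465049_m1 was highest where Angptl4 was lowest, at 5.20 ± 0.22 in conventional against 4.14 ± 0.29 in germfree samples (log2 relative level, SD, n = 9 each), and reached 6.66 in CEC replicate 7. Without the 2 farthest samples r was 0.65 for Mm00489956_g1, -0.74 for Mm00465049_m1 and -0.56 for Mm00466886_m1. Inside groups, without CEC replicate 7 and Nissle replicate 6, r was -0.41 for Mm00465049_m1 and -0.31 for Mm00466886_m1. Permutation p-values, adjusted over the 212 assays, were at most 0.00028 for the 4 Pearson and at most 0.041 for the 4 Spearman values, but they come from samples whose groups differ in level, so they do not separate likeness inside groups from shared group differences.

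**Figure D5:**
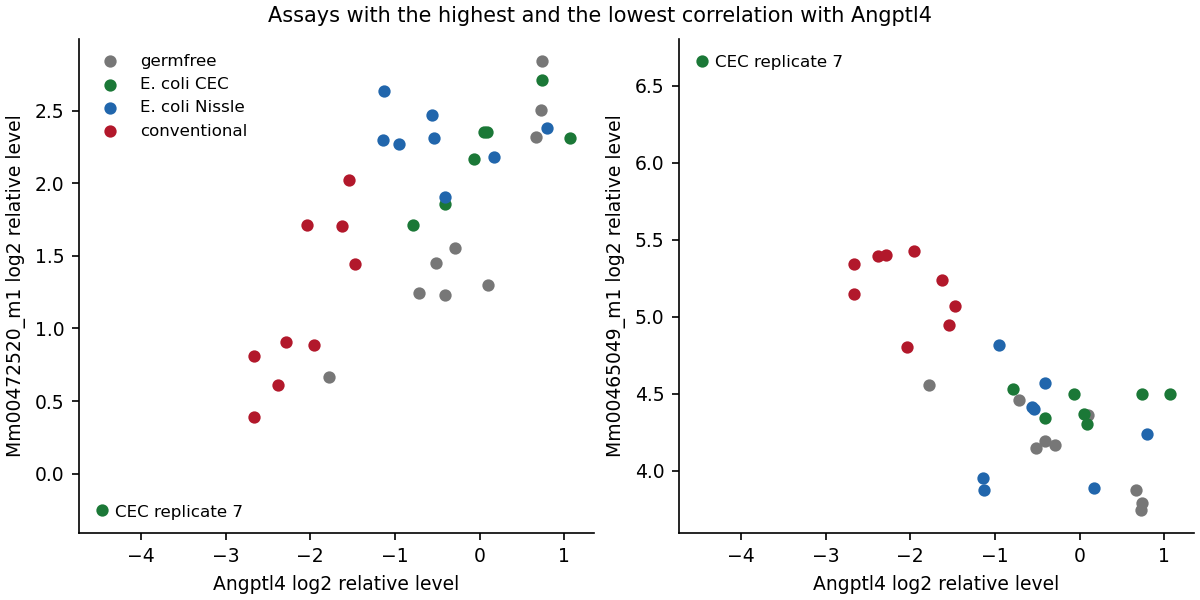
Log2 relative level of the assays with the highest correlation (Mm00472520_m1, left) and the lowest (Mm00465049_m1, right) on the vertical axes against that of Angptl4 on the horizontal axes, 1 point per sample, coloured by group. Both panels show a trend across groups that CEC replicate 7 extends, with r = 0.80 on the left and -0.84 on the right.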

How the data were processed

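Ileal RNA was measured by TaqMan OpenArray real-time PCR, per the labels' protocols. The deposited table holds raw Ct values with no normalization, per the file headers, which also call it a truncated example. The sources used here give no threshold setting, amplification efficiency, reference genes or software. Wells at a Ct of 40 had no amplification and were set to missing (291 of 8064 wells, 3.61%). No 2 samples shared an identical Ct, so all 36 were kept apart. Columns were matched to samples by title.

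Each sample was scaled to its mean Ct over the 146 assays without a missing well. Assays measured in at least 5 samples of every group (216) were fitted with limma 3.58.1 in R 4.3.3, with 1 term per group over all samples and default eBayes, two-sided, adjusted by Benjamini-Hochberg with a threshold of 0.05. The fit was also checked on simulated data with known changes, drawn without an outlying sample such as CEC replicate 7. Single-assay permutation tests were exact, run in Python 3.11.15, and correlations used 100000 resamples. The named assays were Mm00480431_m1 and the 2 highest and 2 lowest by Pearson r with it. Members, lists and tests were chosen with earlier results of these data known. Replicate numbers were not treated as pairs in the main fit. Of 9, 8 and 8 same-numbered pairs, 4, 3 and 3 had a correlation of deviations over 0.1, up to 0.42, 0.47 and 0.42. The lowest were -0.15, -0.41 and -0.06. Differently numbered pairs were not compared, so these values do not exclude a pairing. Alternatives covered scaling, missing wells, filters, fits, weights, the replicate block and samples left out.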

Additional observations from a re-analysis of the deposited data

Results flagged for a closer look

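In the CEC group 1 sample lay far from the rest: CEC replicate 7, with an Angptl4 Ct of 26.26 and a log2 relative level of -4.46. Its gap to the nearest CEC sample took up 0.66 of the group's whole range in level and 0.68 in Ct, above the Dixon limit of 0.526 for 8 samples, a limit that chance passes in about 1 of 20 groups. The Angptl4 deviation of -4.51 log2 units from the median of the other CEC samples was the 21st largest among 217 assays in that sample. Its median absolute deviation over all assays was 1.13 log2 units, against 0.47 for germfree replicate 31, the highest in the germfree group. Whether the whole-panel departure of this sample and its Angptl4 value have 1 source was not tested.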

How the results depend on the processing

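Angptl4 stayed lower in conventional than in germfree samples in every fit: -2.10 to -1.79 with each sample left out, and -2.10 to -1.70 under the other alternatives. The call was lost only with undetermined wells filled in 1 cycle above the assay's highest Ct (-1.90, SE 0.76, limma adjusted p = 0.069), which also ended the calls against CEC (-0.96), Nissle (-0.98) and the mono-associated mean (-0.97). For Angptl4 that highest Ct was the one of CEC replicate 7, and the fill was not run without that sample. Left-out samples gave -1.88 to -1.49 against the mono-associated mean, -1.69 to -1.42 against Nissle and -2.17 to -1.38 against CEC. The CEC call was also lost with raw Ct (-1.50), with only those groups fitted and in the permutation test (both -1.60) and with the replicate block (-1.52, limma adjusted p = 0.10), while the block kept the calls against Nissle (-1.44) and the mono-associated mean (-1.55). Germfree shares too few replicate numbers for a block.

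CEC minus germfree, not called in any fit, turned positive with sample quality weights (0.17), without CEC replicate 7 and Nissle replicate 6 (0.18, or 0.26 with the original 146 assays), and, chosen after seeing the data, without CEC replicate 7 and germfree replicate 31 (0.06) or without CEC replicate 7 under median (0.24), steadiest-assay (0.35), quantile (0.19) and raw Ct (0.34) scaling; left-out samples gave -0.53 to 0.26. The mono-associated mean minus germfree turned positive without CEC replicate 7 under steadiest-assay (0.032) and raw Ct (0.027) scaling, with -0.51 to -0.02 for left-out samples. Nissle minus CEC, near 0, turned positive with quantile scaling (0.10), raw Ct (0.0087), filled wells (0.021), Ct above 28 missing (0.0049) and the replicate block (0.18), with -0.57 to 0.22 for left-out samples. The filter to assays measured in every sample drops Angptl4 and gave no value.

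Scaling to the 20 steadiest assays moved the panel's median by 0.20 log2 units for conventional minus germfree, and Angptl4 relative to that median was -1.82 there and in the main setting. Correlations that moved by over 0.1 were the rho of Mm00489956_g1 (0.45) and Mm00465049_m1 (-0.73), the r of Mm00466886_m1 without CEC replicate 7 and Nissle replicate 6 (-0.60), the r of Mm00489956_g1 (0.65) and Mm00466886_m1 (-0.56) without the 2 farthest samples, and all 4 inside groups without CEC replicate 7 and Nissle replicate 6.

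Assays called ran from 42 to 94 (56 as reported) for conventional minus germfree, 9 to 76 (30) against CEC, 31 to 81 (44) against Nissle, 35 to 95 (46) against the mono-associated mean, 2 to 66 (11; 56 without CEC replicate 7) for CEC and 5 to 52 (16) for Nissle against germfree, 10 to 74 (30) for the mono-associated mean, and 0 to 2 (1) between strains, with 8 to 17 at an unadjusted limma p under 0.05 where the count was 0.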
